A study of Mus musculus with 13 samples.

Results

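The arcuate nucleus libraries of this study were divided by the level of Hsd11b2, a gene close to Agrp on mouse chromosome 8. Libraries above 30 CPM (reads per M reads counted in that library) were called high and those below 5 CPM low. That rule placed 7 of the 13 libraries in the high set and 6 in the low set, with none in between. The libraries were thus chosen by the measured CPM of Hsd11b2, so its difference between the sets is given as a description and was not tested. The comparison asks which other genes differed between libraries with high and with low Hsd11b2, whatever their genotype label.

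Each library came from arcuate nucleus tissue, the part of the hypothalamus with AgRP and POMC neurons. Mice labelled KO came from a cross of Agrp-Cre with floxed Klf4, in which Cre made under Agrp removes Klf4 from cells that express Agrp, and the controls were their littermates. The mice were 20 weeks old, and those on high-fat diet (HFD) had received it for 10 weeks, the others regular chow throughout. RNA was isolated with Trizol and sequenced from SMART-Seq Ultra Low Input v4 libraries. The high set held KO_HFD replicates 1 to 3, KO_Chow replicates 1 to 3 and the library labelled Control_HFD replicate 3. The low set held Control_HFD replicates 1, 2 and 4 and Control_Chow replicates 1 to 3. The Agrp-Cre line, and whether the controls had Cre too, are not stated in the sources used. Replicate numbers follow the order of deposit and only name a library.

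Hsd11b2 encodes 11-beta-hydroxysteroid dehydrogenase type 2, which inactivates corticosterone and, in kidney and a few brain cell groups, keeps glucocorticoids off the mineralocorticoid receptor. Atp6v0d1 encodes a subunit of the membrane part of the vacuolar proton pump, which acidifies lysosomes, endosomes and synaptic vesicles in all cells. Agrp encodes the agouti-related peptide, which AgRP neurons release to drive feeding.

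Hsd11b2 (chr8:105518755-105523988, plus strand) and Atp6v0d1 (chr8:105524465-105566047, minus strand) lie tail to tail, with 476 bases between the gene models. The model of Agrp (chr8:105566698-105637393, minus strand) begins 650 bases further on and spans 70.7 kb, across several other genes whose reads its count may include. Positions are from GENCODE M21 on GRCm38, the assembly of mm10. The start of Atp6v0d1 therefore faces the end of Agrp, and the promoter between them is shown because Atp6v0d1 was the only gene called in the comparison. Of the 4 genes looked up in the RefSeq promoter table (Hsd11b2, Atp6v0d1, Agrp and Klf4), Atp6v0d1 and Klf4 matched. The 250 bases before the RefSeq start of Atp6v0d1 (GRCm38.p6, chr8:105566065-105566314, minus strand) read as follows, with CG pairs in capitals.
Atp6v0d1: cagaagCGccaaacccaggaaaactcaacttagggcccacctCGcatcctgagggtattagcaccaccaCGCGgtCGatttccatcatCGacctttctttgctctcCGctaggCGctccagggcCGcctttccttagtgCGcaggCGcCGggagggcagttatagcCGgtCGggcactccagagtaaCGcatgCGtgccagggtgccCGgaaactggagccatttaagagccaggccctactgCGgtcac
The stretch holds 18 CG pairs and is 60.4% G or C. Over the same 250 bases of 32851 promoters in that table, the medians were 6 CG pairs and 52.4%, and 21.7% of promoters had at least 18 CG pairs.

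Hsd11b2 stood at one level in the high libraries, whichever label or diet they had. It had 67.9, 60.7 and 63.7 CPM in the KO_HFD libraries, 63.6 CPM in the library labelled Control_HFD replicate 3, and 68.5, 61.9 and 64.4 CPM in the KO_Chow libraries. In the low libraries it had 0.903, 0.348 and 1.55 CPM in Control_HFD replicates 1, 2 and 4, and 0.893, 0.598 and 0.377 CPM in the Control_Chow libraries. The medians were 63.7 CPM in the high and 0.745 CPM in the low libraries, an 85.5-fold ratio. The high libraries held 2319 to 4452 Hsd11b2 counts and the low libraries 14 to 106. The lowest high library had 39.1 times the CPM of the highest low library, so any threshold between 1.55 and 60.7 CPM gives the same sets. Per length, the median was 34.6 RPKM (reads per kilobase per M counts) in the high and 0.405 RPKM in the low libraries.

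The library labelled Control_HFD replicate 3 thus sat with the KO libraries for Hsd11b2. In the titles it shares a mouse number, with a different suffix, with KO_HFD replicate 2, and Control_HFD replicates 1 and 2 share another; what these numbers mark is not given. Whether its genotype label is right was not tested. In another library the reads went against the sex letter: Control_Chow replicate 3 has the letter F, but held 0.674 CPM of Xist, a transcript of the inactive X, and 180 CPM over 4 Y-linked genes. By these reads the high set held 5 females and 2 males, and the low set 1 female and 5 males. On chow the high set held 2 females and 1 male, while all 3 low libraries were male. On HFD the high set held 3 females and 1 male, and the low set 1 female and 2 males. Sex is therefore uneven between the sets, and a fit with sex by the reads as a further covariate was also made. The fits within HFD or within chow had no term for sex. Totals were 37.5 to 65.0 M counts in high and 34.7 to 68.2 M in low libraries, and mitochondrial genes took 0.674 to 0.938% and 0.747 to 0.887% of them.

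**Figure D1:**
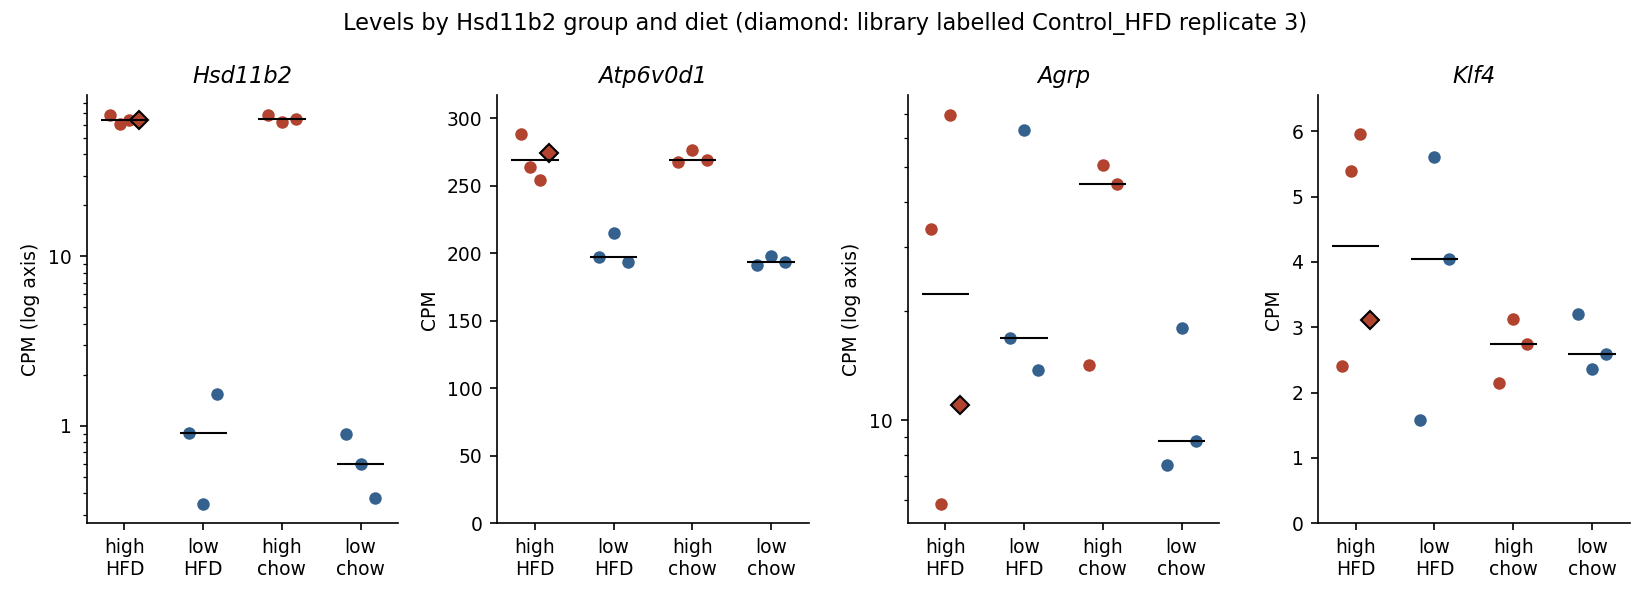
Level in CPM of Hsd11b2, Atp6v0d1, Agrp and Klf4 in each library, by Hsd11b2 set (high in red, low in blue) and diet, with a line at the median; the axes of Hsd11b2 and Agrp are logarithmic. The high and low libraries are apart for Hsd11b2, which chose them, and for Atp6v0d1 (254 to 288 against 191 to 215 CPM), and they overlap for Agrp and Klf4.

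Among the high libraries the coefficient of variation of Hsd11b2 was 4.5%, with a highest library 1.13 times the lowest. Hsd11b2 chose these libraries, so its spread is given as a description and was not tested against that of other genes. Agrp, under which Cre is made in this cross, had a coefficient of variation of 72.2% over the same 7 libraries, with an 11.8-fold range. KO_HFD replicate 2 had 5.88 CPM of Agrp and 60.7 CPM of Hsd11b2, and KO_HFD replicate 3 had 69.6 CPM of Agrp and 63.7 CPM of Hsd11b2. Over the 7 high libraries the Pearson r of Hsd11b2 with Agrp was 0.14 (exact permutation p = 0.749). It was -0.81 without the 2 libraries farthest from the median, so these few libraries do not settle how the 2 genes go together.

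**Figure D2:**
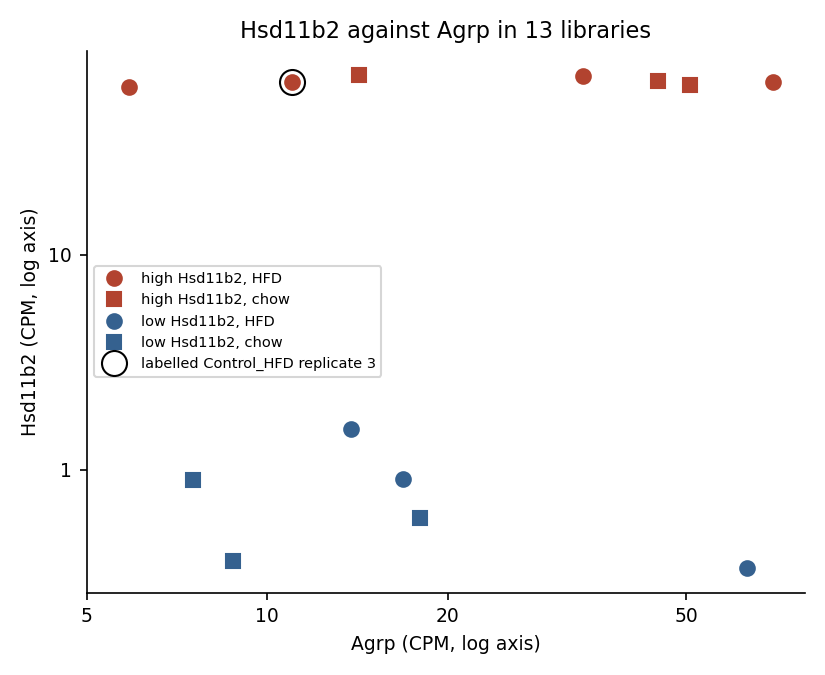
Hsd11b2 against Agrp, both in CPM on log axes, in the 13 libraries; circles are HFD, squares chow, red high and blue low, and the ring marks the library labelled Control_HFD replicate 3. The high libraries hold 60.7 to 68.5 CPM of Hsd11b2 while their Agrp runs from 5.88 to 69.6 CPM.

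Atp6v0d1 was higher in every high library than in any low library. It had 288, 264 and 254 CPM in the KO_HFD libraries, 274 CPM in the library labelled Control_HFD replicate 3, and 268, 276 and 269 CPM in the KO_Chow libraries. It had 198, 215 and 193 CPM in Control_HFD replicates 1, 2 and 4, and 191, 198 and 194 CPM in the Control_Chow libraries. The library labelled Control_HFD replicate 3 lay inside the range of the KO libraries and above all 6 low libraries.

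Across all genes other than Hsd11b2, edgeR's quasi-likelihood test with diet as covariate called 1 of 23621 genes (0.00423%), at an adjusted p (Benjamini-Hochberg) under 0.05. That gene was Atp6v0d1, with a log2 difference of 0.44 ± 0.04 (SE), an unadjusted p of 1.05e-07 and an edgeR adjusted p of 0.00248. The ratio of medians was 1.38. Per length, the median of Atp6v0d1 was 41.1 RPKM higher in the high libraries, and that of Hsd11b2 was 34.2 RPKM higher. An exact permutation test of log2(CPM + 1), two-sided and permuting libraries within each diet, gave p = 0.00143, the smallest that its 700 arrangements allow. This gene was already known from earlier results of these data to go with Hsd11b2.

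With sex by the reads as covariate the difference of Atp6v0d1 was 0.48 ± 0.05 (SE; edgeR adjusted p = 0.00786), and 6.79% of genes had an unadjusted p under 0.05. Split by the genotype label, which moves 1 library to the controls, it was 0.37 ± 0.08 (edgeR adjusted p = 0.461), and no gene was called. It was 0.42 ± 0.07 within HFD (adjusted p = 1.0 by edgeR) and 0.47 ± 0.07 within chow (adjusted p = 0.242), where the split is the genotype label itself. The difference between diets was -0.05 ± 0.09 (SE; unadjusted p of edgeR's interaction term, 0.605). Without the library labelled Control_HFD replicate 3 the high against low difference of Atp6v0d1 was 0.43 ± 0.05 (edgeR adjusted p = 0.0138). Without both that library and Control_Chow replicate 3 it was 0.43 ± 0.05 (edgeR adjusted p = 0.0631), and no gene was called.

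At an unadjusted p under 0.05, there were 2010 genes (8.51%), 1058 with a positive (4.48%) and 952 with a negative difference (4.03%), and the smallest adjusted p after that of Atp6v0d1 was 0.572. The high and low libraries did not overlap in CPM for 50 genes (0.212%), of which 30 were higher (0.127%) and 20 lower (0.0847%). When the library labelled Control_HFD replicate 3 was set aside, 79 genes (0.334%) separated the 6 KO libraries from the 6 low libraries. That library lay on the KO side for 46 of them, on the control side for 29 and between for 4. The genes on the KO side or between are the same 50 as above, so the 50 and the 79 are not independent counts. Those 79 genes were chosen for separating the other 12 libraries, and these counts are given as a description.

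**Figure D3:**
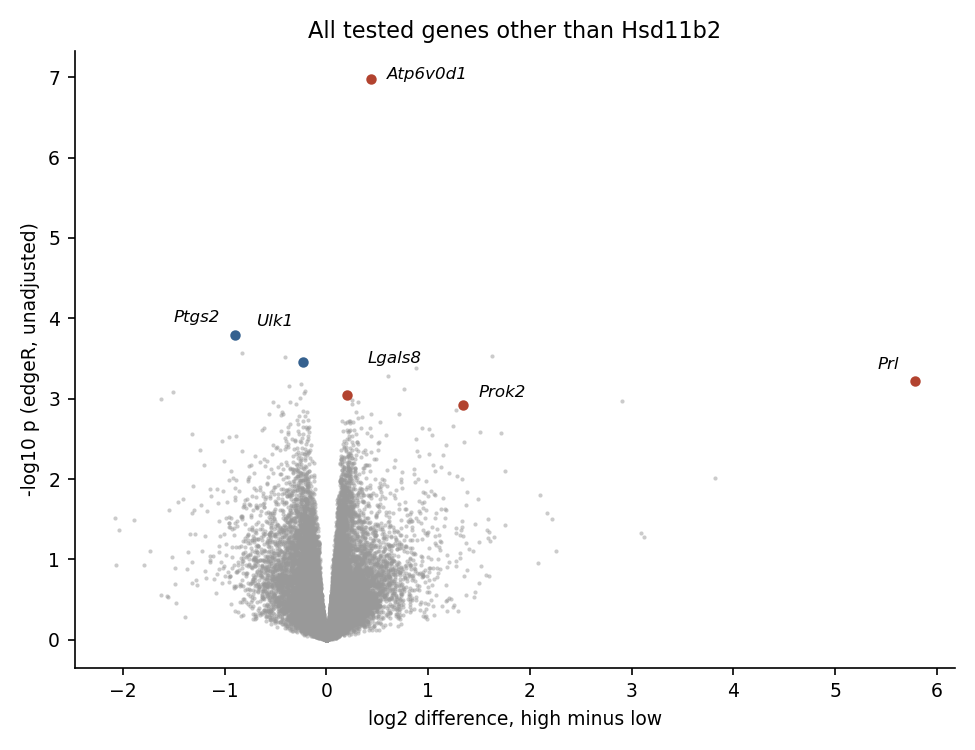
Log2 difference (high minus low Hsd11b2, horizontal) against -log10 of the unadjusted p of edgeR's quasi-likelihood test (vertical) for 23621 genes; named points in red have a positive and in blue a negative difference. Atp6v0d1 stands alone at an unadjusted p of 1.05e-07, while Ptgs2, Ulk1, Lgals8, Prok2 and Prl lie in the body or tails of the remaining genes.

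Among the genes around Hsd11b2, Atp6v0d1 was the only one called. Of 34 tested genes starting within 250 kb of Hsd11b2, 1 was called and 2 (5.88%) had an unadjusted p under 0.05, against 8.51% of all tested genes. The other 33 had a median log2 difference of 0.00, 17 of them above 0, between -0.33 and 0.71, the highest being Agrp. On the near side, Tppp3, which encodes a tubulin-binding protein, had 305 to 357 CPM (median 321) in high and 240 to 352 CPM (median 329) in low libraries. Zdhhc1, a palmitoyltransferase family gene, had a log2 difference of -0.11 ± 0.06 (SE; adjusted p = 0.610 by edgeR). Beyond Atp6v0d1, Ripor1 had -0.13 ± 0.06 (SE; edgeR adjusted p = 0.587), and Ctcf, which encodes a chromatin insulator protein, had 53.6 to 60.5 CPM (median 56.2) in high and 51.1 to 59.8 CPM (median 54.6) in low libraries. The other gene at an unadjusted p under 0.05 was Ranbp10 (-0.16 ± 0.06, SE; edgeR adjusted p = 0.572).

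**Figure D4:**
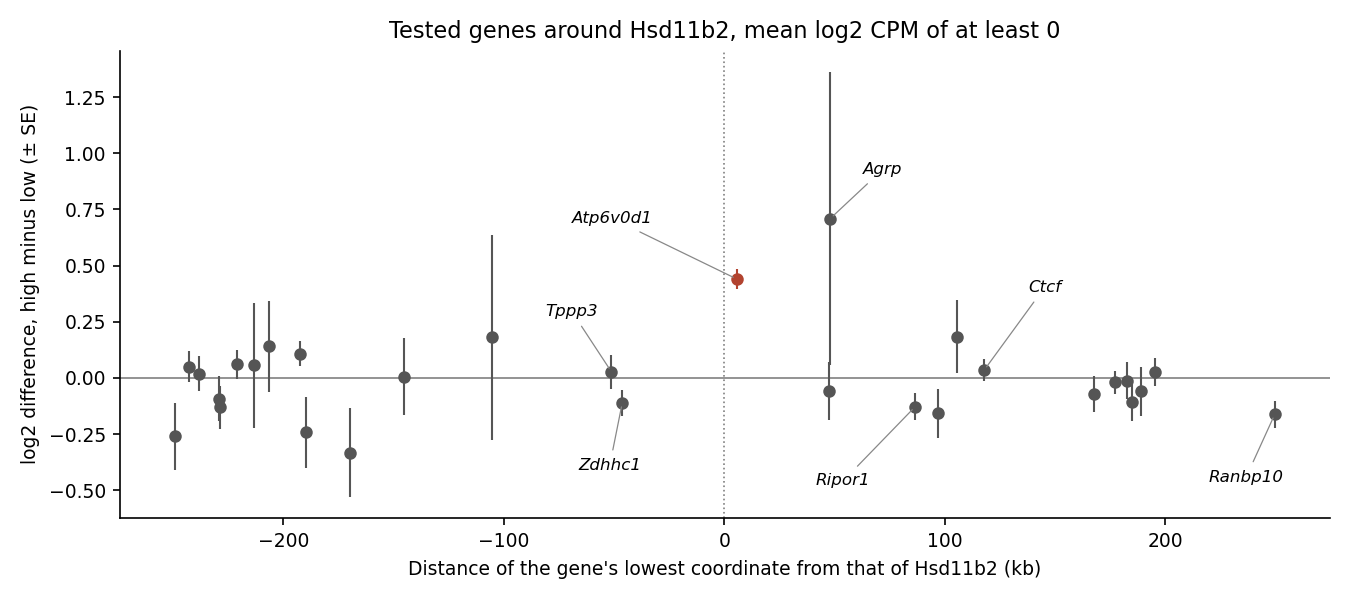
Log2 difference (high minus low Hsd11b2) with its SE for tested genes within 250 kb of Hsd11b2 whose mean log2 CPM was 0 or more, by distance in kb. Atp6v0d1, in red, is at 0.44 with an SE of 0.04; Agrp is at 0.71 with an SE of 0.65, and the neighbours Tppp3, Zdhhc1, Ripor1 and Ctcf lie between -0.13 and 0.03.

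Within 2 Mb of Hsd11b2, 110 genes were tested, of which 8 (7.27%) had an unadjusted p under 0.05. After Atp6v0d1 the smallest p values were those of Ciao2b (0.22 ± 0.07), which serves iron-sulfur protein assembly, Cyb5b (-0.18 ± 0.06), a mitochondrial cytochrome, and Smpd3 (-0.24 ± 0.09), a sphingomyelinase, each at an edgeR adjusted p of 0.572. Around Klf4 (chr4:55527143-55532466), the floxed gene, 19 genes within 2 Mb were tested and 1 (5.26%) had an unadjusted p under 0.05. Among these 19, Ptpn3, a tyrosine phosphatase, had -0.51 ± 0.24 (SE; edgeR adjusted p = 0.586).

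Klf4, the transcription factor gene that the cross was made to delete in AgRP neurons, did not separate the sets. It had 2.14 to 5.95 CPM (median 3.10) in high and 1.58 to 5.61 CPM (median 2.89) in low libraries, with a log2 difference of 0.07 ± 0.27 (SE; edgeR adjusted p = 0.953; exact permutation p = 0.740). Its direction turned under several other settings, among them sex by the reads (-0.23 ± 0.32, SE). In bulk tissue, fewer cells of a type and less RNA per cell cannot be told apart, and Klf4 reads of other cell types are in the same count.

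Over both diets, the high and low libraries overlapped for the peptide genes of AgRP and POMC neurons. Agrp had 5.88 to 69.6 CPM (median 33.6) in high and 7.52 to 63.1 CPM (median 15.3) in low libraries, a log2 difference of 0.71 ± 0.65 (SE; exact permutation p = 0.364). Npy, the second peptide of AgRP neurons, had 25.5 to 185 CPM (median 119) in high and 22.2 to 176 CPM (median 56.9) in low libraries (0.53 ± 0.58, SE; exact permutation p = 0.379). Both sets held libraries at either end of these ranges, and the differences were -0.06 and -0.22 within HFD, against 1.66 ± 0.58 and 1.43 ± 0.69 (SE) within chow. Pomc, the precursor of the satiety peptide alpha-MSH, had 363 to 1878 CPM (median 1274) in high and 165 to 1682 CPM (median 662) in low libraries (0.85 ± 0.48, SE; exact permutation p = 0.181). Cartpt, which POMC neurons also make, had 218 to 476 CPM (median 333) in high and 164 to 476 CPM (median 209) in low libraries (0.41 ± 0.27, SE; exact permutation p = 0.139). Without Control_HFD replicate 2, the highest low library for Agrp, Npy and Cartpt, the exact permutation p was 0.18 for Agrp, 0.197 for Npy, 0.13 for Pomc and 0.0333 for Cartpt. Within HFD the difference was -0.06 ± 0.32 for Pomc and -0.07 ± 0.33 for Cartpt, and within chow it was 1.96 ± 0.68 for Pomc and 1.00 ± 0.23 for Cartpt (SE). These fits had no term for sex, and all low chow libraries were male by the reads. On chow, Cartpt had 274 to 476 CPM in the 3 high and 164 to 230 CPM in the 3 low libraries. In chow libraries alone, 3235 genes had an unadjusted p under 0.05 by edgeR, and none was called. How many genes separate these few libraries was not counted. The interaction with diet had an unadjusted p under 0.05 for Pomc and Cartpt, and an edgeR adjusted p of 0.826 for both. With sex by the reads as covariate the differences were 0.60 for Agrp, 0.59 for Npy, 0.42 for Pomc and 0.71 for Cartpt, the last at an edgeR adjusted p of 0.718.

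Hsd11b2 acts on corticosteroids, and none of 8 tested genes for corticosteroid receptors and enzymes was called (edgeR adjusted p under 0.05), nor did any have an unadjusted p under 0.05 (8.51% of all genes did). Their median log2 difference was 0.02, with 5 above 0, against 0.00 and 50.9% over all genes. Nr3c1, the glucocorticoid receptor, had 103 to 139 CPM (median 122) in high and 99.4 to 130 CPM (median 118) in low libraries. Nr3c2, the mineralocorticoid receptor, had 20.1 to 25.6 CPM (median 22.9) in high and 20.2 to 25.02 CPM (median 23.8) in low libraries. H6pd, which supplies cofactor to the sister enzyme Hsd11b1, had -0.17 ± 0.15 (SE; edgeR adjusted p = 0.757), and -0.36 ± 0.16 with sex by the reads (edgeR adjusted p = 0.718).

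None of 14 tested glucocorticoid response genes was called, their median was 0.05 and 8 were above 0. The metallothioneins Mt2 and Mt1, which bind zinc and copper, were the pair with an unadjusted p under 0.05 (8.51% of all genes had one). Mt2 had 39.3 to 65.5 CPM (median 60.5) in high and 24.8 to 63.1 CPM (median 38.8) in low libraries, a log2 difference of 0.52 ± 0.15 (SE; edgeR adjusted p = 0.572). Mt1 differed by 0.32 ± 0.12 (SE; edgeR adjusted p = 0.572). With sex by the reads as covariate the differences were 0.29 for Mt2 and 0.13 for Mt1. None of 8 tested genes of epithelial sodium transport, which the mineralocorticoid receptor governs in kidney, was called, with a median of -0.01 and 4 above 0. Nedd4l, the ubiquitin ligase that removes the sodium channel ENaC from the membrane, had the smallest p, at -0.27 ± 0.09 (SE; edgeR adjusted p = 0.572), and -0.18 with sex by the reads.

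Among the subunits of the vacuolar proton pump, Atp6v0d1 was again the only one called. Of 19 tested members, 1 was called, 3 had an unadjusted p under 0.05 (8.51% of all genes did), 9 were above 0 and the median was 0.00. After Atp6v0d1 the smallest p values were those of Atp6v1g1 (0.13 ± 0.05, SE) and Atp6v1f (0.14 ± 0.06, SE), both subunits of the cytosolic part, at edgeR adjusted p of 0.573 and 0.576. Of 14 tested KLF factors, the family of Klf4, none was called and the median was 0.03, or -0.08 with sex by the reads. The smallest p in that family was that of Klf8, on the X chromosome, at -0.40 ± 0.18 (SE; edgeR adjusted p = 0.576).

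Below the threshold, the genes of smallest p, among those averaging a log2 CPM of 1 or more, are given next. None passed the test, and each had an edgeR adjusted p of 0.572. Lgals8, a galectin that marks damaged endosomes, had 82.3 to 88.0 CPM (median 84.4) in high and 65.0 to 79.8 CPM (median 75.0) in low libraries, without overlap (0.20 ± 0.05, SE). Prok2, a secreted peptide of the suprachiasmatic clock, had 2.69 to 7.75 CPM (median 3.92) in high and 0.701 to 3.54 CPM (median 1.68) in low libraries, with overlap (1.34 ± 0.33, SE). The others with a positive difference were Micu2, a regulator of mitochondrial calcium uptake (0.26), Mrps28, of the mitochondrial ribosome (0.25), Xrcc4, of DNA end joining (0.29), Srbd1 (0.43), Znhit6 (0.35), Ccs, the copper chaperone of superoxide dismutase (0.23), and the phosphatase Dusp26 (0.16).

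Ulk1, the kinase that starts autophagy, had 65.0 to 72.2 CPM (median 71.4) in high and 72.6 to 89.6 CPM (median 81.8) in low libraries, without overlap (-0.23 ± 0.05, SE). DESeq2, which called 5 genes in all (0.0212%), called it with an adjusted p of 0.0486. Vps13b, a lipid transfer protein of the Golgi, had 33.5 to 40.78 CPM in high and 40.82 to 47.6 CPM in low libraries, so the sets almost met (-0.23 ± 0.06, SE). The others with a negative difference were Smcr8 (-0.36), a partner of C9orf72 in autophagy, Zfyve26 (-0.37), of autophagic lysosome reformation, Usp28 (-0.25), Apc2 (-0.22), Prr14l (-0.30), Srrm2 (-0.19) and Ptprb (-0.48), a phosphatase of blood vessels. Among rarer transcripts without overlap, Ptgs2, the inducible cyclooxygenase, had 0.774 to 0.979 CPM (median 0.878) in high libraries. Ptgs2 had 0.979 to 2.18 CPM (median 1.60) in low libraries, so that the sets almost met (-0.90 ± 0.17, SE), and DESeq2 called it (adjusted p = 0.0374). Sgo2a had -0.83 ± 0.17 and Draxin -1.50 ± 0.35 (SE), with medians of 0.532 and 0.120 CPM in high against 1.03 and 0.316 CPM in low libraries.

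Cell type and pathway lists are described by their counts and medians, which over all genes were 50.9% above 0 and 0.00. Of all genes, 8.51% had an unadjusted p under 0.05. No member of any list was called apart from Atp6v0d1 (0.00423% of all genes were). All 12 interferon response genes had a positive difference, with a median of 0.64, and 3 had an unadjusted p under 0.05. Ifit3, an antiviral gene, had 25.8 to 113 CPM (median 56.1) in high and 15.6 to 49.9 CPM (median 26.3) in low libraries (0.95 ± 0.36, SE; edgeR adjusted p = 0.572), and Oasl2 differed by 0.90 ± 0.37 (SE; edgeR adjusted p = 0.576). With sex by the reads as covariate the median of the list was 0.17, Ifit3 differed by 0.28 and Oasl2 by 0.45. Without the library labelled Control_HFD replicate 3 the median was 0.74.

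All 20 genes of the cytosolic ribosome had a positive difference, with a median of 0.18 and 11 at an unadjusted p under 0.05 (8.51% of all genes were). Their median was 0.21 with sex by the reads, 0.07 within HFD and 0.31 within chow. Rps27a had 56.5 to 69.5 CPM (median 64.2) in high and 43.6 to 62.7 CPM (median 54.6) in low libraries (0.22 ± 0.07, SE; edgeR adjusted p = 0.572), and Rps3 differed by 0.17 ± 0.06 (SE; edgeR adjusted p = 0.572). Ribosomal protein genes have many near-identical copies in the genome, so their counts are uncertain. Of 12 synaptic vesicle genes 1 was above 0, the median was -0.16 (-0.07 with sex by the reads) and 2 had an unadjusted p under 0.05, namely the release-site genes Rims1 (-0.26 ± 0.09, SE) and Unc13a (-0.21 ± 0.07, SE), both at an edgeR adjusted p of 0.572. The summed level of that list was 4790 to 6610 CPM in high and 5585 to 7199 CPM in low libraries.

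No marker of glia, vessels or the ventricle wall was called. All 12 myelin genes of oligodendrocytes had a positive difference, with a median of 0.41, or 0.04 with sex by the reads. Their summed level was 2074 to 9062 CPM in high and 2770 to 7152 CPM in low libraries, and Mog, a myelin surface protein, differed by 0.50 ± 0.37 (SE; edgeR adjusted p = 0.706), or 0.11 with sex by the reads. The myelin median was 0.16 within HFD and 0.72 within chow, where all low libraries were male by the reads. All 12 tanycyte genes, of the cells lining the third ventricle, had a positive difference, with a median of 0.37, or 0.25 with sex by the reads, and the median was -0.04 within HFD and 0.87 within chow. Of 10 ependymal cilia genes 9 were above 0 with a median of 0.49, or 0.01 with sex by the reads, and the median was -0.36 within HFD and 1.43 within chow. Rsph1, of the ciliary radial spoke, differed by 0.52 ± 0.25 (SE; edgeR adjusted p = 0.590), or 0.40 with sex by the reads. The median was 0.18 for 12 microglia genes, 0.08 for 10 astrocyte genes, 0.11 for 8 genes of oligodendrocyte precursors, and -0.16 for 12 endothelial and mural genes, of which 2 were above 0. With sex by the reads these medians were 0.05 for microglia, -0.07 for astrocytes (1 of 10 above 0), 0.01 for precursors and -0.35 for endothelial and mural genes, with 4 of the last at an unadjusted p under 0.05 (6.79% of all genes in that fit). The microglia median was -0.06 within HFD and 0.49 within chow. Flt1, a receptor for vascular endothelial growth factor, had 17.8 to 31.1 CPM (median 22.1) in high and 27.6 to 32.2 CPM (median 29.7) in low libraries (-0.38 ± 0.11, SE; edgeR adjusted p = 0.572), and differed by -0.46 with sex by the reads.

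**Figure D5:**
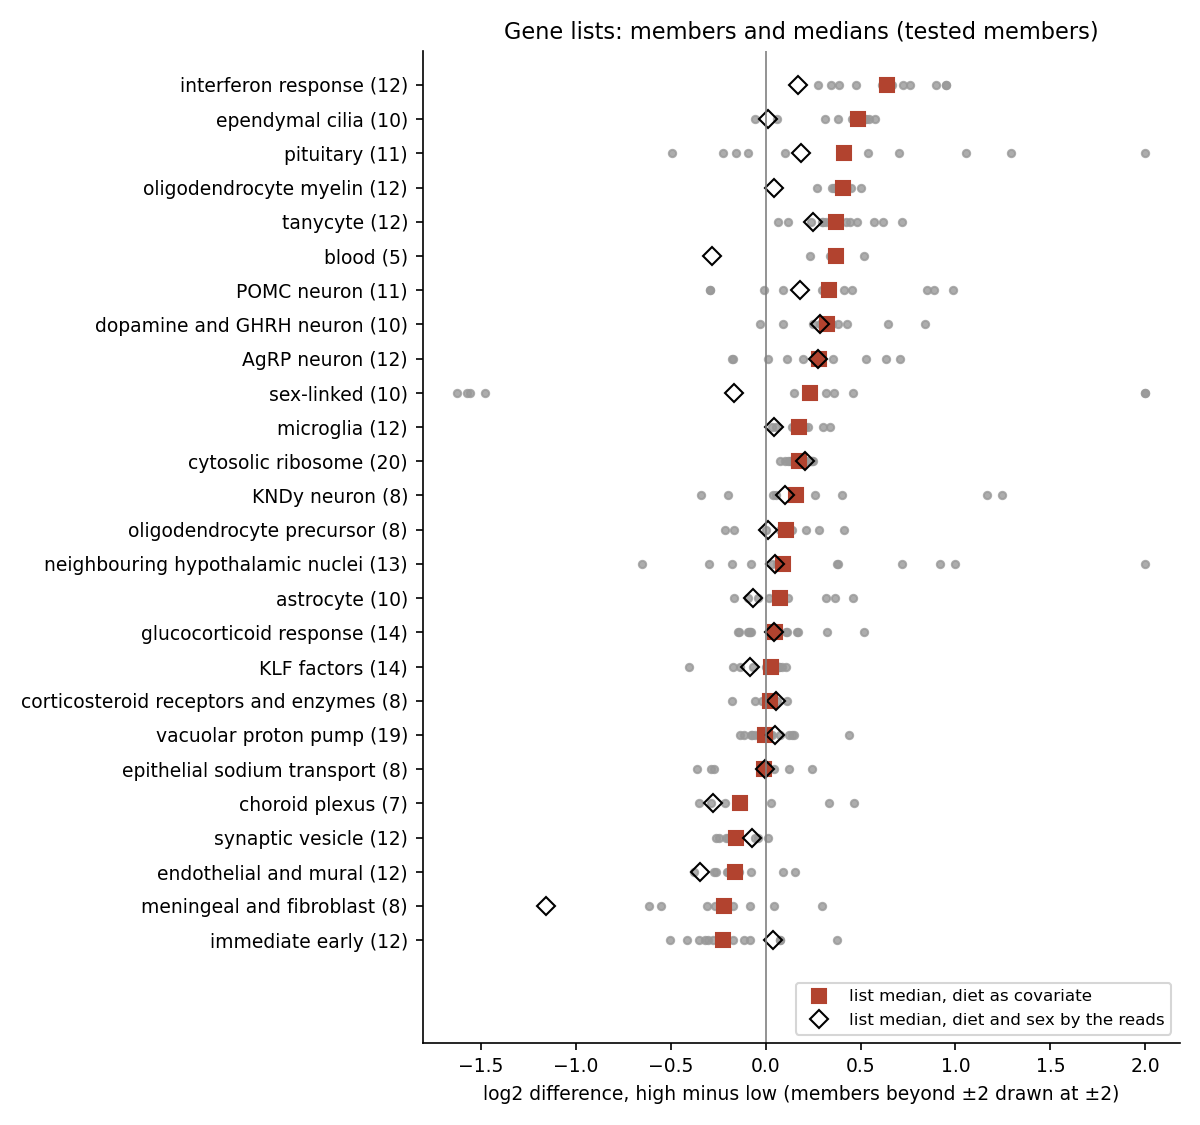
Log2 difference (high minus low Hsd11b2) of the tested members of 26 gene lists (grey points), with the list median when diet is the covariate (red squares) and when diet and sex by the reads are (open diamonds). The medians of interferon, ependymal and myelin lists are 0.64, 0.49 and 0.41 with diet alone and 0.17, 0.01 and 0.04 with sex, while that of the cytosolic ribosome is 0.18 and 0.21.

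The neuron lists also held no called gene. Their medians were 0.28 for 12 AgRP neuron genes, 0.33 for 11 POMC neuron genes, 0.32 for 10 genes of dopamine and GHRH neurons, and 0.16 for 8 genes of KNDy neurons, which make kisspeptin, neurokinin B and dynorphin and drive the release of gonadotropin-releasing hormone. By diet, the median of the AgRP list was -0.18 within HFD and 0.69 within chow, that of the POMC list 0.05 and 0.77, that of the dopamine and GHRH list 0.03 and 0.71, and that of the KNDy list 0.13 and 0.19. With sex by the reads the medians were 0.28, 0.18, 0.29 and 0.10 in the same order of lists. Tac2, which encodes neurokinin B, had 31.9 to 138 CPM (median 82.2) in high and 19.9 to 51.3 CPM (median 31.7) in low libraries (1.25 ± 0.32, SE; edgeR adjusted p = 0.572). Kiss1, which encodes kisspeptin, had 6.89 to 29.8 CPM (median 19.6) in high and 2.10 to 12.7 CPM (median 5.71) in low libraries (1.17 ± 0.45, SE; edgeR adjusted p = 0.572). Both genes respond to sex hormones, and with sex by the reads as covariate the differences were 0.73 for Tac2 and 0.60 for Kiss1. The prohormone convertase Pcsk1 differed by 0.30 ± 0.08 and Th, of dopamine synthesis, by 0.84 ± 0.36 (SE; edgeR adjusted p 0.572 and 0.576), or 0.18 and 0.36 with sex by the reads. The other convertase of the POMC list, Pcsk2, went the other way, at -0.29 ± 0.15 (SE, edgeR adjusted p = 0.594), or -0.21 with sex by the reads. Cpe, of the same list, differed by -0.01. Th differed by 0.11 ± 0.31 within HFD and 1.72 ± 0.43 within chow (SE), with an edgeR adjusted p of 0.826 for the interaction.

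Markers of sex and of neighbouring tissue were also uneven between the sets. Xist had 0.585 to 64.5 CPM (median 56.9) in high and 0.471 to 38.2 CPM (median 0.909) in low libraries. The X-linked genes Eif2s3x and Ddx3x, which escape X inactivation, differed by 0.46 ± 0.16 and 0.36 ± 0.13 (SE; edgeR adjusted p = 0.572 for both), and by 0.09 and 0.08 with sex by the reads. Vip, a peptide of the suprachiasmatic nucleus, had 0.387 to 61.7 CPM (median 4.79) in high and 0.230 to 1.70 CPM (median 0.916) in low libraries, and its log2 difference was 3.82 ± 1.23 (SE; edgeR adjusted p = 0.572), or 0.51 ± 1.59 with sex by the reads. Prl, the pituitary hormone prolactin, had 0 to 1.56 CPM (median 0.152) in high and 0 to 0.0205 CPM (median 0) in low libraries. The median log2 difference was 0.09 for 13 genes of neighbouring hypothalamic nuclei, 0.37 for 5 blood genes (-0.28 with sex by the reads), -0.13 for 7 choroid plexus genes (-0.27 with sex by the reads) and -0.22 for 12 immediate early genes (0.04 with sex by the reads). For 8 meningeal and fibroblast genes it was -0.22, or -1.16 with sex by the reads, and their summed level was 36.0 to 375 CPM in high and 37.0 to 423 CPM in low libraries. The pituitary list, with a median of 0.41 over 11 genes (0.19 with sex by the reads), summed to 322 to 918 CPM in high and 290 to 857 CPM in low libraries. The part of sex and of neighbouring tissue in the differences of single genes and lists, beyond the fit with sex, was not tested.

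The effect of the Hsd11b2 split was also compared between diets. edgeR called no gene for the interaction of split and diet (0.0%), and 1342 (5.68%) had an unadjusted p under 0.05, the smallest adjusted p being 0.826. DESeq2 called 3 genes (0.0127%), Wasf3, Fam171a2 and Eml2, with interaction terms (HFD against chow) of 0.67 ± 0.13, 0.58 ± 0.12 and 0.48 ± 0.10 (SE; DESeq2 adjusted p = 0.00322, 0.00506 and 0.0158). They were named after their values were seen.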

How the data were processed

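RNA of 13 arcuate nuclei was analysed from 1 table the authors deposited, with raw read counts and RPKM for 55421 gene identifiers. Per the submitters' processing notes, STAR, STAR-Fusion, Subread, FastQC, edgeR and mm10 were used; the sources give no version, role, strand setting or filter. The deposited RPKM equalled counts per length plus 1 base and per M column total, so tests used counts. Of the identifiers, 54673 had the same start in GENCODE M21.

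The 13 libraries were divided by Hsd11b2 CPM, above 30 or below 5. edgeR 4.0.16 (in R 4.3.3, beside limma 3.58.1) with TMM, its default expression filter (23622 genes) and robust quasi-likelihood fits tested high against low with diet as covariate, with 10 residual degrees of freedom and a common biological coefficient of variation of 0.232. Benjamini-Hochberg adjustment covered the 23621 genes other than Hsd11b2, at 0.05. Tested on simulated counts for this comparison (23621 genes), the fit recovered 82% of 100 genes changed 2-fold and 98% of 100 changed 4-fold, with 9 false among 189 calls. The changed genes were drawn from those with a mean of at least 1 CPM. No effect of diet or sex and no change below 2-fold was simulated, so these shares do not give the recovery in the real libraries. Exact tests covered 6 single genes. DESeq2 1.42.0, limma voom, other normalization, filters, covariates, splits and leaving out libraries were alternatives; 1 of them (DESeq2 with sex by the reads) was added after seeing the data. Sex by the reads compares Xist with 4 Y-linked genes.

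The libraries, gene lists and tests were chosen with earlier results of these data known. Named were Hsd11b2, Atp6v0d1, Klf4, Agrp, Npy, Pomc and Cartpt, called genes, the smallest p up to 10 per direction (mean log2 CPM of at least 1, no predicted genes), up to 4 per list, genes near Hsd11b2 or Klf4, and genes without overlap; a part of these is printed, and some are not reported here. Replicate pairs differed by at least 16.38 times sampling noise (chi-square per degree of freedom), so none was counted as a repeat. Titles differ in mouse number or suffix, but nothing says what a suffix marks, so p-values rest on the spread between these samples. Depth was 34.7 to 68.2 M counts, and 1 count equalled 0.0147 to 0.0288 CPM.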

Additional observations from a re-analysis of the deposited data

Results flagged for a closer look

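Of 21 groups of libraries examined for a sample far from the others, several held one. Chance flags about 1 in 20 such groups, but the groups share libraries, so the number of flags cannot be set against that rate. All flags fell on Control_HFD replicate 3 or Control_HFD replicate 2. Hsd11b2 stood far from the other libraries labelled Control_HFD in Control_HFD replicate 3, at 63.57 CPM, against 0.348 to 1.55 CPM in the other libraries of that label; this value put it in the high set. Control_HFD replicate 2 was far above the other low libraries for Atp6v0d1 (215.2 CPM), Agrp (63.1 CPM), Npy (176.3 CPM) and Cartpt (475.7 CPM), and for Agrp (63.1 CPM) also above the other libraries labelled Control_HFD. Its Atp6v0d1 was nonetheless below the lowest high library, at 254 CPM.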

How the results depend on the processing

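The difference of Atp6v0d1 kept its direction in all 26 other settings (0.37 to 0.48 on the log2 scale) and was called in 22, among them all 13 that leave out a library (edgeR adjusted p 0.0005 to 0.0198). The call was lost, with 0 genes called, when libraries were split by the genotype label and in HFD or chow libraries alone (fewer samples). It was also lost, with 0 genes called, without both Control_HFD replicate 3 and Control_Chow replicate 3. DESeq2 called 5 genes (Atp6v0d1, Slfn9, Ptgs2, Gm26917 and Ulk1) and, with sex by the reads, 2 (Atp6v0d1 and Mrvi1). Leaving out libraries gave 1 to 2 called genes, the further gene being Prl without KO_HFD replicate 1. At an unadjusted p under 0.05 there were 388 genes in HFD libraries, 3235 in chow libraries, and 1261 (without Control_Chow replicate 1) to 3331 (without Control_HFD replicate 2) when leaving out libraries. For the interaction with diet, DESeq2 called 3 genes, and the unadjusted count was 765 (without Control_HFD replicate 2) to 2134 (without KO_HFD replicate 3) when leaving out libraries, with 2124 without Control_HFD replicate 1. Klf4 turned to -0.11 with the sex letter, -0.23 with sex by the reads (-0.24 in DESeq2), -0.042 within chow, and -0.12 to 0.24 when leaving out libraries, with exact permutation p from 0.400 to 0.995. Within HFD, Agrp (-0.061), Npy (-0.22), Pomc (-0.060), Cartpt (-0.074) and Rsph1 (-0.0056) turned. The exact permutation p of Cartpt was 0.0333 to 0.327 when leaving out libraries. For these changes the cause was not tested. Of 676 list medians recomputed, 13 moved by more than the spread of their members. No paired analysis was possible because replicate numbers only follow the order of deposit, and no mouse number in the titles is shared by a high and a low library. Sex and the Hsd11b2 split are unevenly mixed, and split and genotype label differ in 1 library, so their effects cannot be told apart on chow. Counts of Hsd11b2 in low libraries (14 to 106) limit the precision of its low level.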
